A study of Mus musculus with 8 samples.

Results

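Laminins are the cross-shaped glycoproteins that build the first sheet of a basement membrane. Each molecule is a trimer of 1 alpha, 1 beta and 1 gamma chain, joined in the cell before secretion and named after the numbers of its chains. The alpha chain carries the globular end that integrins and dystroglycan bind, while the short arms of the chains join neighbouring molecules into a network that nidogen and perlecan tie to type IV collagen. Dermal fibroblasts secrete laminin chains to the dermal-epidermal border and around vessels, nerves and hair follicles.

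The 9 chains described here were taken by gene symbol: the alpha chain genes Lama2, Lama3, Lama4 and Lama5, the beta chain genes Lamb1, Lamb2 and Lamb3, and the gamma chain genes Lamc1 and Lamc3. They were read with 11 of the 55681 probes on the array, and all 9 passed the filter on dim signal, among 17107 features tested. Lama1, a further alpha chain gene, was read with 1 probe and is given beside the 9, because some trimers need it. In the mouse assembly GRCm38.p6 the genes lie on several chromosomes, Lama2 and Lama4 on 10, Lama3 on 18, Lama5 and Lamc3 on 2, Lamb1 on 12, Lamb2 on 9, Lamb3 and Lamc1 on 1, and Lama1 on 17.

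Dermal fibroblasts of newborn C57BL/6 mice, grown in culture, received either miR-127-3p mimic oligonucleotides (samples 2, 4, 5 and 7) or control oligonucleotides (samples 1, 3, 6 and 8), and the RNA of each sample was read in 1 colour on its own array of 1 slide. A mimic is a synthetic RNA delivered by transfection to raise the amount of a microRNA in the cell. The treatment label of controls 3 and 6 names both treatments, while their titles name the control, which was followed. The labels do not say whether samples of a group came from separate cultures or animals, so p-values measure the spread between these samples, which may be technical.

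The microRNA is shown because it is the agent that sets the groups apart. Its mature mouse sequence in RefSeq (GRCm38.p6, chr12:109592888-109592909, plus strand) has its seed, bases 2 to 8, in capitals.
mmu-miR-127-3p: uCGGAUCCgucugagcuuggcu
The sequence of the transfected oligonucleotide itself and matches of the seed to laminin transcripts were not analysed here.

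With the mimic, 7 of the 9 chains rose and 0 fell (limma, adjusted p under 0.05 over all features tested). Lamc3 and Lama2 changed by far more than their replicate spread, while Lamb1, Lama5, Lama4, Lamc1 and Lamb2 rose by 1.23-fold to 1.55-fold. Lama3 and Lamb3, which belong to the laminin of the epidermal anchor, did not pass the test. Of all features tested 15.9% rose, 18.3% fell and 34.2% changed in either direction. Lamc3 passed the filter through the mimic arrays alone, so it had to differ, and its call supports nothing. Of the 8 chains above background in both groups 6 rose, against 15.7% (33.9% in either direction) of all features above background on an array of both groups. Among all 9 chains, Lamc3 included, the count of 7 became 4 without control 1, without miR-127-3p 7 or with slide column as a block. The median log2 fold change of the 9 chains was 0.59, against 0.02 for all features tested.

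**Figure D1:**
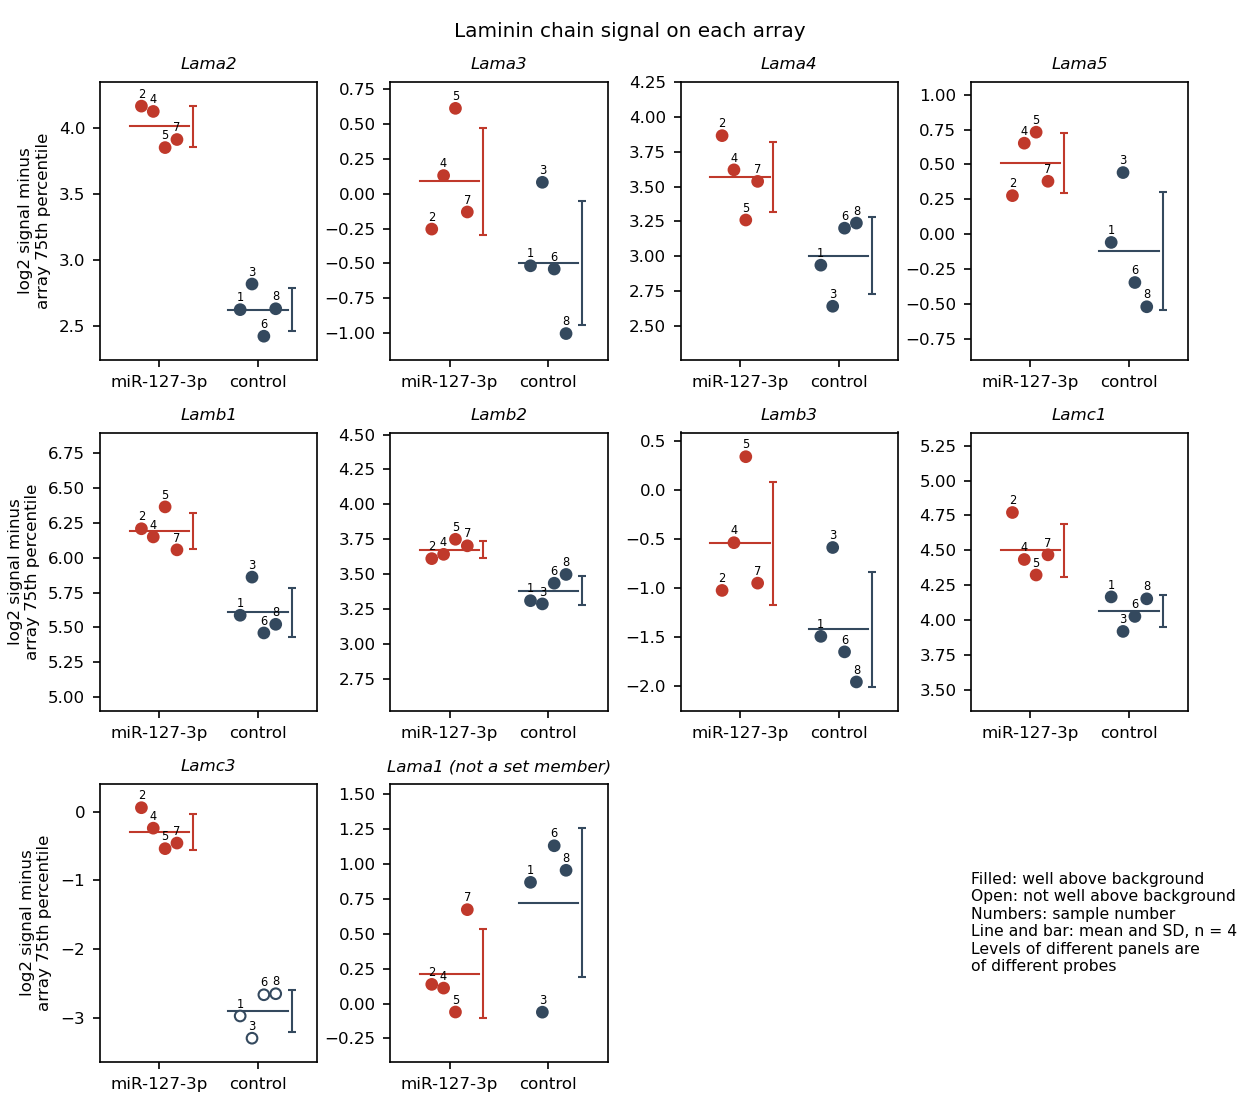
Signal of each laminin chain on each array, as log2 processed signal minus the array's 75th percentile; points are samples, lines and bars are mean and SD (n = 4 miR-127-3p and 4 control), and open points were not well above background. Lama2 and Lamc3 separate widely between the groups, whereas Lama3 and Lamb3 overlap, with control 3 among the mimic samples.

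Lama2 encodes the alpha 2 chain, the alpha chain of the basement membranes of skeletal muscle and of Schwann cells, whose loss causes muscular dystrophy. Its brighter probe read 4.16, 4.12, 3.85 and 3.91 in miR-127-3p samples 2, 4, 5 and 7, against 2.63, 2.82, 2.43 and 2.63 in controls 1, 3, 6 and 8 (log2 signal relative to the array's 75th percentile, the scale of all levels below). The lowest mimic sample was above the highest control. The means were 4.01 ± 0.15 with the mimic and 2.63 ± 0.16 in controls (SD, n = 4 each), which is 1.39 higher (SE 0.11, limma adjusted p = 6.40e-05), or 2.61-fold. The dimmer probe of the gene gave a log2 fold change of 1.30 (SE 0.10, limma adjusted p = 5.99e-05 over 21981 probes), so both probes passed. Within slide row 1 and within slide row 2 (2 arrays per group in each) the log2 fold change was 1.42 and 1.35, and both passed.

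Lama4 encodes a short alpha chain of vessel and nerve basement membranes. It read 3.86, 3.62, 3.26 and 3.54 in miR-127-3p samples 2, 4, 5 and 7, against 2.94, 2.64, 3.20 and 3.24 in controls 1, 3, 6 and 8. The groups did not overlap, though miR-127-3p 5 was only slightly above controls 6 and 8. Lama4 rose by 0.57 (SE 0.17, limma adjusted p = 0.0311). It was 0.95 within slide row 1 (adjusted p = 0.0418) and 0.18 within slide row 2 (adjusted p = 0.460), and the difference between the rows was not tested.

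Lama5 encodes the alpha chain of most mature epithelial and vessel basement membranes. It read 0.28, 0.65, 0.73 and 0.38 in miR-127-3p samples 2, 4, 5 and 7, against -0.06, 0.44, -0.35 and -0.52 in controls 1, 3, 6 and 8. Control 3 lay above miR-127-3p 2 and 7, so the groups overlapped. The log2 fold change was 0.63 (SE 0.21, limma adjusted p = 0.0456), and it was 0.27 within slide row 1 (adjusted p = 0.502) and 0.99 within slide row 2 (adjusted p = 0.0445). The calls of Lama4 and Lama5 were lost in 8 and in 10 of 20 alternative settings. Both were lost when control 1 or miR-127-3p 2, 4 or 7 was left out. The call of Lama4 was also lost without control 3, and that of Lama5 without miR-127-3p 5, control 6 or control 8.

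Lamb1 encodes the most widely used beta chain. It read 6.21, 6.15, 6.36 and 6.06 in miR-127-3p samples 2, 4, 5 and 7, against 5.59, 5.86, 5.46 and 5.52 in controls 1, 3, 6 and 8. The groups did not overlap, and control 3 was the highest control. Lamb1 rose by 0.59 (SE 0.11, limma adjusted p = 0.00444). Within slide row 1 it was 0.45 (adjusted p = 0.140) and within slide row 2 it was 0.72 (adjusted p = 0.0641), and these were the only 2 of 20 alternatives in which its call was lost.

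Lamb2 encodes the beta chain that marks the neuromuscular junction and the kidney filter. It read 3.61, 3.64, 3.75 and 3.70 in miR-127-3p samples 2, 4, 5 and 7, against 3.31, 3.29, 3.43 and 3.50 in controls 1, 3, 6 and 8. All mimic samples were above all controls, by a narrow gap. The log2 fold change of 0.29 (SE 0.08, limma adjusted p = 0.0221) was the smallest of the 9 chains and its call was lost in 8 of 20 alternatives. These included the removal of control 1 (adjusted p = 0.0578), of miR-127-3p 5 (adjusted p = 0.0501) or of miR-127-3p 7 (adjusted p = 0.0584).

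Lamc1 encodes the gamma chain found in most laminins. It read 4.77, 4.43, 4.32 and 4.47 in miR-127-3p samples 2, 4, 5 and 7, against 4.17, 3.92, 4.03 and 4.15 in controls 1, 3, 6 and 8. The groups did not overlap, and miR-127-3p 2 was the highest sample. Lamc1 rose by 0.43 (SE 0.11, limma adjusted p = 0.0185), with 0.56 within slide row 1 (adjusted p = 0.129) and 0.31 within slide row 2 (adjusted p = 0.210).

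Lamc3 encodes the gamma 3 chain, a rarer gamma chain described in skin, peripheral nerve and retina. Its only probe read 0.06, -0.24, -0.54 and -0.46 in miR-127-3p samples 2, 4, 5 and 7, all well above background, against -2.97, -3.30, -2.66 and -2.65 in controls 1, 3, 6 and 8, none of them well above background. The measured signal with the mimic was 6.06-fold higher, a size that is uncertain because no control was well above background. The filter admitted the gene through the mimic arrays alone, so its limma adjusted p of 3.28e-05 is given for completeness and supports nothing. The 6.06-fold sets the mean of the mimic arrays against the probe's own signal on the control arrays, so it is not a lower bound. The measured means were -0.30 ± 0.27 with the mimic and -2.89 ± 0.31 in controls (SD, n = 4 each). With normexp background correction the log2 fold change was 1.21, against 2.60 in the main fit. With no filter on dim probes, where every probe was tested, the adjusted p was 0.000225.

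**Figure D2:**
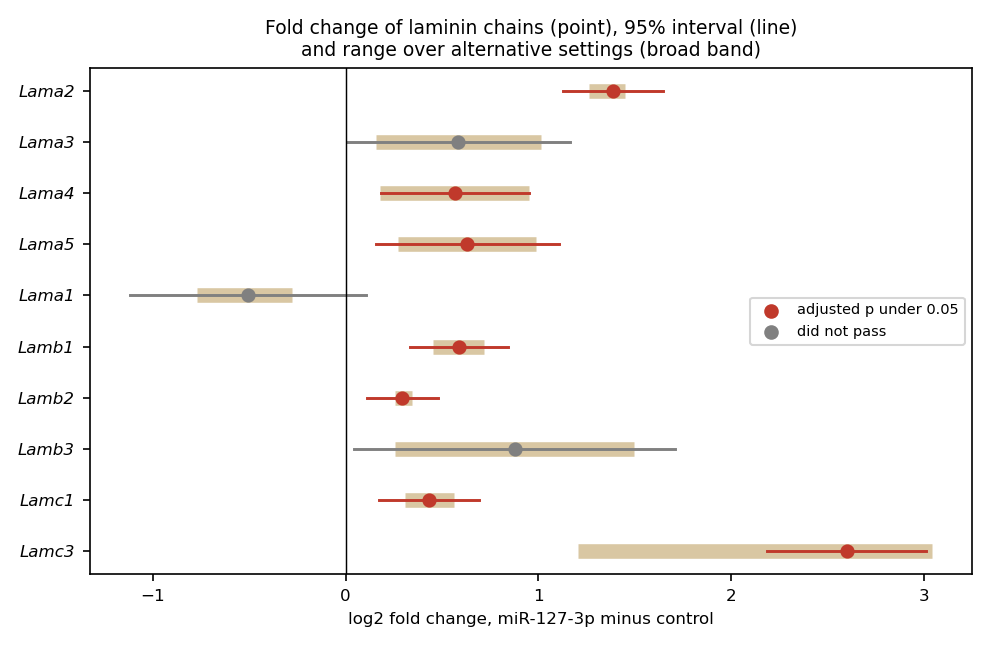
Log2 fold change (miR-127-3p minus control) of each laminin chain with its 95% confidence interval, over a broad band that spans the lowest and highest value under the alternative settings. The points of Lama2 and Lamc3 lie farthest from 0, the interval of Lamb3 spans that of Lama2, and no chain changed sign under any of the alternatives, Lama1 included, which is the only chain below 0.

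The difference between 2 chains within each array was taken for 6 pairs of Lama2 or Lamc3 with another chain. The pairs were chosen because these 2 chains were seen to rise most, so the differences are a description with no test. The rise of Lama2 was larger than that of Lamb1 by 0.80, of Lamc1 by 0.95 and of Lama4 by 0.82 on the log2 scale. Between Lama2 and Lama5 the difference was 0.76. Lama2 minus Lama1 was 3.80 ± 0.38 with the mimic and 1.90 ± 0.68 in controls (SD, n = 4 each), a shift of 1.89. Lamc3 minus Lamc1 shifted by 2.17, a size that is uncertain because the Lamc3 signal of the controls was not well above background. These values say nothing of the ratio of the chains, because each probe has its own brightness.

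Lama3 and Lamb3 encode chains of laminin-332, which holds basal keratinocytes to the dermis. The brighter probe of Lama3 read -0.25, 0.13, 0.61 and -0.13 in miR-127-3p samples 2, 4, 5 and 7, against -0.52, 0.08, -0.54 and -1.003 in controls 1, 3, 6 and 8. Lamb3 read -1.02, -0.54, 0.34 and -0.95 in miR-127-3p samples 2, 4, 5 and 7, against -1.49, -0.59, -1.65 and -1.95 in controls 1, 3, 6 and 8. In both genes miR-127-3p 5 was the highest sample, control 3 was the highest control and control 8 the lowest, and the groups overlapped through control 3.

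The log2 fold change of Lama3 was 0.58 (95% interval 0.0046 to 1.16, limma adjusted p = 0.109) and that of Lamb3 was 0.88 (95% interval 0.044 to 1.71, limma adjusted p = 0.0964). The dimmer Lama3 probe was well above background on 2 of 4 mimic arrays and on 2 of 4 control arrays, and its difference was 0.62 (SE 0.41, adjusted p = 0.282 over 21981 probes). Without control 3 both genes passed, with 0.78 (adjusted p = 0.0317) for Lama3 and 1.15 (adjusted p = 0.0276) for Lamb3. Within slide row 1, which holds control 3, their log2 fold changes were 0.16 and 0.26, and within slide row 2 they were 1.01 and 1.50.

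Over the 8 arrays Lama3 and Lamb3 had a Pearson r of 0.987 and a Spearman rho of 1.00. Without the 2 samples farthest from the median, miR-127-3p 5 and control 8, r was 0.991, and after the group means were subtracted it was 0.978. The pair was chosen by the trimer the chains form, after the values were seen, so these values are a description with no test.

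**Figure D3:**
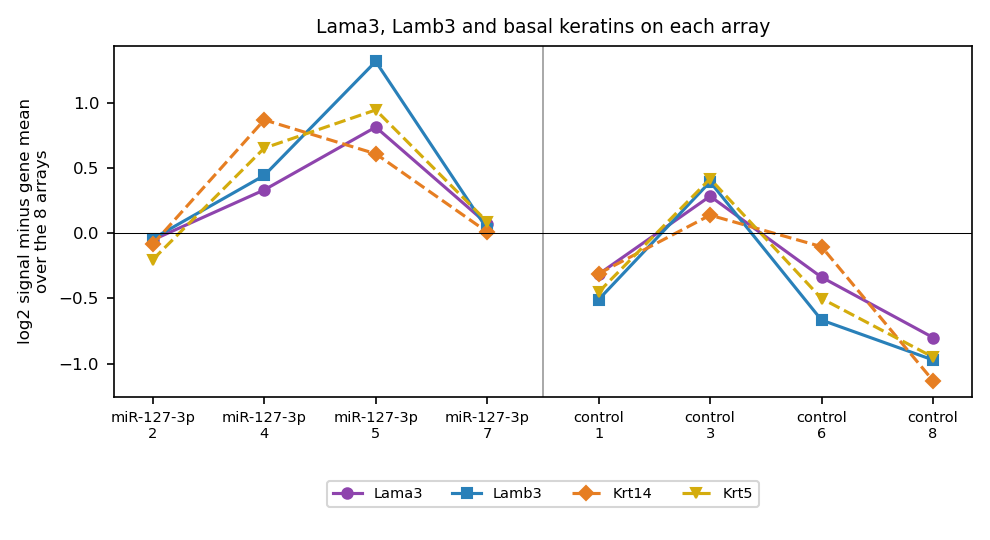
Lama3 and Lamb3 (solid lines) and the basal keratins Krt14 and Krt5 (dashed lines) on each array, as log2 signal minus the gene's mean over the 8 arrays, with the mimic samples left of the vertical line. All 4 genes were high in miR-127-3p 4 and 5 and in control 3, and lowest in control 8.

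The basal keratins Krt14 and Krt5 ordered the samples in a similar way to Lama3 and Lamb3, while Trp63, the transcription factor of basal keratinocytes, did not. Krt14 (log2 fold change 0.70, limma adjusted p = 0.112) and Krt5 (0.74, limma adjusted p = 0.117) did not pass either. Krt5 read 2.51, 3.36, 3.66 and 2.80 in miR-127-3p samples 2, 4, 5 and 7, against 2.26, 3.13, 2.21 and 1.76 in controls 1, 3, 6 and 8, so that miR-127-3p 5 and control 3 were again the highest of their groups. Trp63 read 1.82, 2.09, 2.02 and 2.23 in miR-127-3p samples 2, 4, 5 and 7, against 2.13, 2.27, 2.10 and 2.10 in controls 1, 3, 6 and 8, a log2 fold change of -0.11 (adjusted p = 0.436). Its value in miR-127-3p 5 was below every control. Of 10 keratinocyte markers 5 were tested and 1, the keratin gene Krt10, rose (log2 fold change 0.36), against 15.9% of all features. Summed over the 10, the signal was 2000 to 3376% of the array's 75th percentile on mimic arrays, against 1313 to 2538% on control arrays. Krt1, Krt15 and Dsg3 were well above background on 0 of 8 arrays, and Cdh1 and Epcam on 3 each. The part of keratinocyte RNA in the levels of Lama3 and Lamb3 was not tested, and in bulk RNA fewer cells of a type and less RNA per cell cannot be told apart.

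Lama1 encodes the alpha chain of early embryonic basement membranes. It read 0.14, 0.11, -0.06 and 0.67 in miR-127-3p samples 2, 4, 5 and 7, against 0.87, -0.06, 1.13 and 0.96 in controls 1, 3, 6 and 8. Control 3 lay with the mimic samples and the other controls above all of them. The log2 fold change of -0.51 (SE 0.27, limma adjusted p = 0.176) did not pass, and without control 3 it was -0.77 (adjusted p = 0.0131). For Lama2 and Lamc3, in contrast, control 3 lay with the other controls.

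The chains above background limit which trimers these cultures could form, as far as messenger RNA tells. Of the trimers described for laminin, 11 can be made from the 9 chains alone. A chain counted as detected where 2 or more of the 4 arrays of a group had a probe of its gene well above background. All 11 had their 3 chains detected with the mimic and 8 in controls, and the counts were the same when 1 or all 4 arrays were asked for. The 3 that differ, laminin-213, laminin-423 and laminin-523, are those with the gamma 3 chain of Lamc3, whose control signal was not well above background. The arrays do not show protein, chain assembly or secretion. As the RNA is bulk, they also do not show whether the same cell held all 3 chains.

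All 3 chains rose in 9 of the 11 trimers made from the 9 chains. Among these, 3 count only through Lamc3, which passed the filter through the mimic arrays alone and whose call supports nothing. The trimers also share chains, so their counts are not independent. The count of 9 was unchanged with normexp background correction, quantile normalization or the deposited values. It was also unchanged with the mean over probes, slide row as a block or a trended robust prior. However, it fell in every fit that left out samples. Without control 1 or without miR-127-3p 7 it was 2, and without miR-127-3p 2, 4 or 5 it was 3. With slide column as a block or without controls 3 and 6 it was 1, laminin-213, which needs the call of Lamc3. In laminin-211, the laminin of muscle and Schwann cells, and in laminin-221 of the neuromuscular junction, the alpha chain Lama2 rose most. In laminin-411 and laminin-421 of vessels, and in laminin-511 and laminin-521 of epithelia and vessels, the alpha chains Lama4 and Lama5 and their beta and gamma chains rose by at most 1.55-fold. Laminin-213 combines the chains with the largest changes, Lama2 and Lamc3, with Lamb1. In laminin-311 and laminin-321 the beta and gamma chains rose and the alpha chain Lama3 did not pass. In laminin-111 and laminin-121 the beta and gamma chains rose while the alpha chain Lama1 had a log2 fold change of -0.51 that did not pass.

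Promoters are shown for the alpha chain that rose most among the chains detected in both groups and for its beta partners, that is the chains of laminin-211 and laminin-221 for which the RefSeq table holds a promoter. The table covers 5 of the 9 chains (Lama2, Lama5, Lamb1, Lamb2 and Lamb3). Each window runs from 250 bases before to 50 bases after the start of the gene and is given 5′ to 3′ on the gene's strand (GRCm38.p6). Capitals mark matches on either strand to TATAAA (the TATA box), CCAAT (the box of that name), GGGCGG (GC box), TGANTCA (AP-1 site) and CACGTG (E-box).
Lama2, chr10:27616893-27617192, minus strand: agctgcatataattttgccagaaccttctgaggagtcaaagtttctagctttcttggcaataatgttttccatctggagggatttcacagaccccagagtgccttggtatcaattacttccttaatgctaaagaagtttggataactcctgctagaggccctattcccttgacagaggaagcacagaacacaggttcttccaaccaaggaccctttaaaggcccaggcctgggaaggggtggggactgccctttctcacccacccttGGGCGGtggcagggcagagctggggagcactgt
Lamb1, chr12:31265043-31265342, plus strand: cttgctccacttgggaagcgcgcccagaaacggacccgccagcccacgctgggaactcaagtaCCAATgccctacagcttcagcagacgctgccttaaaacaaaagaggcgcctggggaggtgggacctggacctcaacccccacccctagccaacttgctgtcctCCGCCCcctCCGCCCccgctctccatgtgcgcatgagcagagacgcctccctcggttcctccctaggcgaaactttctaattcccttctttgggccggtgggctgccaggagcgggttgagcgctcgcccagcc
Lamb2, chr9:108479612-108479911, plus strand: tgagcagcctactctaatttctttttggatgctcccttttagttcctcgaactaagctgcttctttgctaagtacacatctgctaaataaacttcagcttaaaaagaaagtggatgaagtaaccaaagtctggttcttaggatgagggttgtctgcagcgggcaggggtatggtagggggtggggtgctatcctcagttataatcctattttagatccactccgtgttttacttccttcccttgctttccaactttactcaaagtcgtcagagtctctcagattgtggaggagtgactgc
The Lama2 window held 1 GC box, downstream of the start, the Lamb1 window 2 GC boxes and 1 CCAAT box, and the Lamb2 window none of the 5 motifs. Among all 32851 promoters held by RefSeq here, the GC box was in 35.7%, the CCAAT box in 37.4%, the TATA box in 13.6%, the AP-1 site in 7.81% and the E-box in 7.15%. The GC content was 50.3% for Lama2, 63.7% for Lamb1 and 44.0% for Lamb2, against a median of 52.7% over the table. No motif was common to the 3 windows.

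Genes whose products bind laminin were read from lists of receptors and basement membrane partners. Of 9 laminin receptor genes 4 rose and 3 fell, against 15.9% and 18.3% of all features. Only 2 rose in 6 of the 8 fits that left out 1 sample (all but those without control 3 or miR-127-3p 4), and 1 with slide column as a block. Itgb1, the beta subunit of most laminin-binding integrins, rose by 0.60 on the log2 scale (SE 0.14, limma adjusted p = 0.0121), Sdc4, a heparan sulphate proteoglycan of the cell surface, by 0.57 (SE 0.13), Itga3 by 1.18 (SE 0.38) and Itgb4, the partner of the alpha 6 subunit in hemidesmosomes, by 1.20 (SE 0.41). Itga3 was well above background on 3 of 4 mimic arrays and 1 of 4 control arrays. Itga3 and Itgb4 barely passed (adjusted p = 0.0423 and 0.0497) and lost their calls in 13 of 19 and 14 of 20 alternatives. Itgb4 read 1.07 in miR-127-3p 5 and -0.12 in control 3, the highest of their groups, as for Lama3 and Lamb3.

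Itga6, the alpha 6 subunit, read 2.56, 2.83, 3.41 and 2.66 in miR-127-3p samples 2, 4, 5 and 7, against 4.44, 4.45, 3.90 and 3.90 in controls 1, 3, 6 and 8. All mimic samples were below all controls, and Itga6 fell by 1.31 on the log2 scale (SE 0.22, limma adjusted p = 0.00235). Dag1, which encodes dystroglycan, fell by 0.45 on the log2 scale (SE 0.13, limma adjusted p = 0.0256), a call lost in 9 of 20 alternatives. Bcam, a receptor for laminins with the alpha 5 chain, was not well above background on any mimic array. Its measured log2 fold change was -0.98, a size that is uncertain and ranged from -1.15 to -0.39 over the alternatives. Bcam passed the filter through the control arrays alone, so its place among the 3 that fell supports nothing. Itga7 (0.32, adjusted p = 0.103) and Sdc1 (-0.07, adjusted p = 0.767) did not pass.

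Dystroglycan binds laminin through a sugar chain on its outer subunit. Of 12 enzymes that build it 11 were tested, and 2 rose and 3 fell, against 15.9% and 18.3% of all features. These counts are not far from those shares. Pomt1 and Pomt2, which add the first mannose, fell by 0.55 (SE 0.11) and 1.09 (SE 0.16) on the log2 scale. Pomt2 was well above background on 1 of 4 mimic arrays and on 4 of 4 control arrays, and the control arrays alone were enough to pass the filter. The size of its fall is uncertain, with log2 fold changes of -1.24 to -0.23 over the alternatives. The kinase gene Pomk (0.39, SE 0.09) and the xylosyltransferase gene Rxylt1 (0.29, SE 0.08) rose, and the call of Rxylt1 was lost in 11 of 20 alternatives.

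Linkers tie laminin to the rest of the matrix. Of 8 linker and proteoglycan genes 7 were tested, and 5 rose and 0 fell, against 15.9% and 18.3% of all features. Only 3 rose with slide column as a block, 1 with no filter on dim probes, and 0 and 1 within slide row 1 and 2. Nid1 and Nid2, the nidogens that bind the gamma 1 chain, rose by 0.63 (SE 0.15) and 0.47 (SE 0.11) on the log2 scale. Hspg2, which encodes perlecan, rose by 0.41 (SE 0.10). Tinagl1, a secreted matrix protein, rose by 0.96 (SE 0.26, limma adjusted p = 0.0226), a call lost in 9 of 20 alternatives. Agrn, which encodes agrin, a proteoglycan that binds laminin, read 4.95, 5.03, 4.95 and 5.39 in miR-127-3p samples 2, 4, 5 and 7, against 4.38, 4.04, 4.20 and 4.07 in controls 1, 3, 6 and 8, with no overlap and a rise of 0.91 (SE 0.13, limma adjusted p = 0.00102). Col18a1 (0.53, adjusted p = 0.0529) and Fbln2 (0.29, adjusted p = 0.0787) did not pass, and Col15a1 was not tested for lack of signal.

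Type IV collagen forms the second network of the basement membrane. Of 6 chains 4 were tested, and Col4a1 (log2 fold change 0.60, SE 0.19, limma adjusted p = 0.0395) and Col4a2 (0.75, SE 0.16, limma adjusted p = 0.00713), which form one trimer together, rose. The call of Col4a1 was lost in 10 of 20 alternatives. The share of all features that rose was 15.9%. Col4a5 (0.39, adjusted p = 0.106) and Col4a6 (0.08, adjusted p = 0.740) did not pass, and Col4a3 and Col4a4 were not tested for lack of signal.

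**Figure D4:**
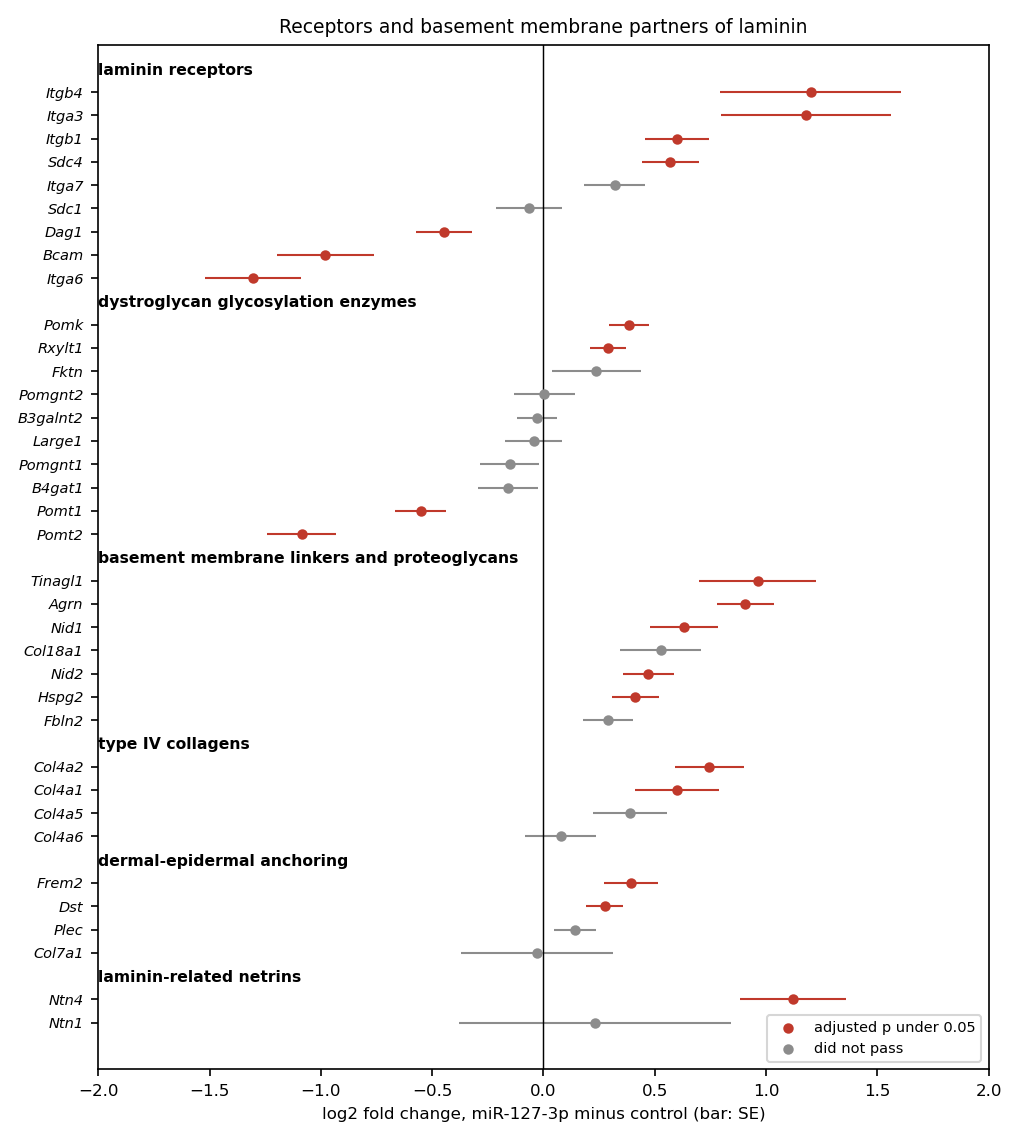
Log2 fold change (miR-127-3p minus control, bar: SE) of tested genes of 6 lists around laminin, with red points past the adjusted p of 0.05. The matrix linkers and type IV collagens lie at or above 0, whereas receptors and dystroglycan enzymes lie on both sides.

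The genes whose levels followed Lamc3, the chain with the largest rise, most closely over the 8 arrays were Plxdc2 (Pearson r 0.993), Sod3, the extracellular superoxide dismutase (0.992), and Trp53inp1, a p53 target (0.990), among all tested genes with a symbol. They are named by their likeness alone, over arrays that share the difference between the groups, and all 3 rose (log2 fold changes of 1.20, 2.92 and 1.64). No chain among the 9 fell, so none was followed in that direction.

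The arrays had between 20775 and 23485 probes well above background, and no spot was saturated. All 8 fibroblast markers were well above background on every array, and among them Pdgfra fell and Dcn rose (log2 fold changes of -0.97 and 1.18). Among macrophage and leukocyte markers 8 of the 9 tested were called higher, against 15.9% of all features. The 10 listed summed to 6394 to 7494% of the array's 75th percentile on mimic arrays, against 3611 to 4539% on control arrays, with Ptprc above background on 0 of 8 arrays. Endothelial markers, of which Vwf rose (1.97) among 4 tested, summed to 1945 to 2184% on mimic arrays, against 1601 to 1952% on control arrays, with Cldn5, Erg, Tek and Tie1 above background on 0 arrays. Schwann cell markers, of which S100b rose (2.18) among 3 tested, summed to 686 to 982% on mimic arrays, against 676 to 798% on control arrays, with Foxd3 and Cdh19 above background on 0 arrays. Pericyte and smooth muscle markers had 0 rises and 1 fall among 5 tested, and skeletal muscle and adipocyte markers had 0 of 3 and 0 of 4 called. The part of these cell types in the laminin chains was not tested.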

How the data were processed

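Each of the 8 arrays (4 miR-127-3p, 4 control) was scanned in 1 colour. Per the file headers, the deposited intensity values are processed signals of Agilent Feature Extraction 11.5.1.1; the files also hold a background-subtracted signal and detrending statistics. The log2 values of the deposited series table equal the log2 processed signal minus 1 constant per array, and were used as an alternative. The design text names GeneSpring without its steps. Control and outlier spots were left out, spots of a probe were averaged on the log2 scale, and each array's 75th percentile was subtracted. Probe accessions were named through RefSeq (GRCm38.p6), which gave 28331 of 55681 probes a symbol. Probes well above background on at least 4 of 8 arrays were tested, with the brightest probe for each gene, using limma 3.58.1 in R 4.3.3 (two-sided, Benjamini-Hochberg adjustment over 17107 features, threshold 0.05). The fit was tested on simulated data with known changes.

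The members and lists were chosen with earlier results of these data known. The text names the 9 chains and Lama1, every gene of a partner list with at most 10 members and otherwise the 4 with the smallest p, and the 3 genes most alike to the member that rose most. Rxylt1 falls outside this rule and was named after its values were seen. Alternatives were normexp background correction (offset 50, on the median pixel signals, as the files hold no mean signal), quantile normalization, the deposited values, other filters, the mean over probes, slide row or column as a block, each row alone, a trended robust prior, and removal of samples. The number of arrays limits the precision. Some results are not reported here.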

Additional observations from a re-analysis of the deposited data

How the results depend on the processing

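No chain changed direction in 20 alternatives (19 for Lamc3). Lama2 was called in all 20, and Lamc3, which passed the filter through the mimic arrays alone, in all 19. Lamb1 was called in 18, Lamc1 in 15, Lama4 and Lamb2 in 12 each and Lama5 in 10, while Lama3 and Lamb3 were called in 1 each. With no filter on dim probes 3657 features and 3 laminin chains were called, and Lama4 (0.57, adjusted p = 0.0978), Lama5 (0.63), Lamb2 (0.29) and Lamc1 (0.43) lost their calls. With slide column as a block, which sets the 1 mimic array of each column against its 1 control array, 4 chains were called, without Lama5 (0.63, adjusted p = 0.0796), Lamb2 (0.29) and Lamc1 (0.43). Without controls 3 and 6 also 4 were called, as Lama4 (0.48), Lamb2 (0.27) and Lamc1 (0.34) lost their calls. Within slide row 1 the counts were 1763 features and 3 chains, with losses of Lama5 (0.27), Lamb1 (0.45), Lamb2 (0.33) and Lamc1 (0.56). Within slide row 2 they were 1611 and 3, with losses of Lama4 (0.18), Lamb1 (0.72), Lamb2 (0.26) and Lamc1 (0.31), and the median of the chains was 0.99. Lone rows hold 2 arrays per group.

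When 1 sample was left out, 4 to 8 chains were called higher (4 without control 1 or without miR-127-3p 7, 8 without control 3), 4322 to 5793 features were called and the median of the chains was 0.56 to 0.78. The log2 fold changes then ranged from 0.41 to 0.78 for Lama3, 0.45 to 0.67 for Lama4, 0.50 to 0.82 for Lama5, 0.26 to 0.33 for Lamb2 and 0.58 to 1.15 for Lamb3. Of the 37 partner genes tested 16 rose and 6 fell, against 15.9% and 18.3% of all features. With no filter 5 rose, with slide column as a block 6, and within slide row 1 and 2 0 and 3, where 1 fell in each. When 1 sample was left out, 9 to 16 rose. The cause of these shifts was not tested. The trimers with all 3 chains called higher, 9 of 11, were 1 with no filter, with slide column as a block or without controls 3 and 6, 0 within either slide row, and 2 to 8 when 1 sample was left out. The 1 trimer left was laminin-213, which counts only through Lamc3. The sample numbers are not shared between the groups, so no fit paired samples by number.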

Other observations

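Genes of the border between dermis and epidermis and relatives of laminin were read from 2 further lists. Of 7 anchoring genes 4 were tested, and Dst, which encodes a plakin of hemidesmosomes (log2 fold change 0.27, SE 0.08, limma adjusted p = 0.0323), and Frem2, of the Fraser complex of the dermal border (0.39, SE 0.12, limma adjusted p = 0.0361), rose. Their calls were lost in 14 and 12 of 20 alternatives, and 15.9% of all features rose. Col7a1, the collagen of the anchoring fibrils, (-0.03, SE 0.34, adjusted p = 0.959) and Plec (0.14, adjusted p = 0.272) did not pass. Netrins share the end domain of the laminin short arms. Of 6 netrin genes 2 were tested and 1 rose, against 15.9% of all features. Ntn4, a netrin that binds the gamma 1 chain, rose by 1.12 on the log2 scale (SE 0.24, limma adjusted p = 0.00744). It was well above background on 4 of 4 mimic arrays and 1 of 4 control arrays, so the mimic arrays alone were enough to pass the filter. The size of its rise is uncertain, and ranged from 0.50 to 1.43 over the alternatives. Ntn1 had a log2 fold change of 0.23 (adjusted p = 0.798).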
